A study of Homo sapiens with 12 samples.

Results

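The comparison concerned MOLM-13 cells that received the FLT3 inhibitor quizartinib in medium conditioned by bone marrow stromal cells, set against the same cells given vehicle in plain RPMI. It shows which transcripts remained different from untreated cells when both the drug and the conditioned medium were present. Its members were 6 of the 12 libraries in the series and 12998 of the 57353 gene names in the count table, chosen as the names whose counts, and whose counts scaled to library size (CPM), both averaged 1 or more over the 12 libraries. MOLM-13 is an established human acute myeloid leukemia (AML) line that carries an internal tandem duplication of FLT3 (FLT3-ITD), and the labels give the genotype of all groups as WT. The series held 4 conditions of 15 hr with 3 libraries each, namely vehicle in RPMI, 3 nM quizartinib (AC220) in RPMI, vehicle in hBMSC-CM, and 3 nM quizartinib in hBMSC-CM. The conditioned medium came from HS-5, a single human bone marrow stromal line, mixed with RPMI, and no stromal cells were part of the cultures, so only soluble factors of 1 stromal line were examined in 1 leukemia line. RNA was selected by poly-A.

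FLT3 is a receptor tyrosine kinase of early blood progenitors, and the internal tandem duplication keeps it active without ligand. The active receptor signals through STAT5, through the RAS/MAPK cascade and through PI3K/AKT/mTOR, which drive transcription of cytokine response genes, MYC, ribosome production and the cell cycle. Bone marrow stromal cells secrete cytokines and growth factors that reach several of the same cascades through other receptors, and such factors are known to protect FLT3-mutant AML cells from FLT3 inhibitors.

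Library totals ranged from 20573090 to 28039168 counts in the treated hBMSC-CM cells and from 22287982 to 30347953 in the untreated RPMI cells, and 3 counts amounted to 0.0951 to 0.15 CPM over the 12 libraries. Replicate 1 of the treated hBMSC-CM cells stood apart from its replicates. Its chi-square per gene was 9.80 against replicate 2 and 9.45 against replicate 3, while those differed from each other by 3.16 and the untreated RPMI libraries by 2.66 to 4.602. Such distances were not limited to this group. Libraries of hBMSC-CM with vehicle differed by 3.73 to 10.46 and those of quizartinib in RPMI by 2.73 to 6.44. Mitochondrially encoded transcripts made up 0.683% of its counts, 0.947% and 0.939% of those of replicates 2 and 3, and 0.683% to 0.79% in the untreated RPMI libraries. The study's reporting checklist describes its replicates as biological, but the labels do not say how the cultures were separated, and p-values measure the spread between these libraries.

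Defining transcripts of the cell line were present in every library. CD33 lay between 73.7 and 101 CPM, PTPRC (CD45) between 257 and 545 CPM and HOXA9 between 21.2 and 27.9 CPM. Of the 24 stromal markers in the table, 9 were at 0 in all 12 libraries, COL3A1, LUM, DCN and THY1 among them. The summed level of those 24 was 76.9 to 83.0 CPM in untreated RPMI cells and 143 to 155 CPM in treated hBMSC-CM cells, but 164 to 194 CPM in quizartinib-treated cells in RPMI, which received no conditioned medium. Of the 6 that passed the filter, 4 were higher and none lower in the comparison, where 30.6% of all genes were higher, led by COL1A1 and MMP2. COL1A1, at the low end of what was measured, had 0.137, 0.117 and 0.277 CPM in untreated RPMI cells and 0.841, 1.01 and 1.12 CPM in treated hBMSC-CM cells, with a mean of 4.61 CPM for quizartinib in RPMI, and the part of this difference in other results was not tested. Lymphoid and erythroid markers were summed at 148 to 154 CPM in untreated RPMI cells and 219 to 231 CPM in treated hBMSC-CM cells, and at 213 to 236 CPM with quizartinib in RPMI. Of the 3 that passed the filter, CD4, which monocytes also express, and NKG7 were higher and CD8A was not called (median 0.59), while CD3E was at 0 in all 12 libraries, and their part in other results was not tested. In bulk samples, fewer cells of a kind and less RNA per cell cannot be told apart.

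Quizartinib-treated cells in hBMSC-CM did not return to the untreated transcriptome. They had higher levels of the lipid transporter ABCA1, of the myeloid genes NFE2, MXD1, S100A9 and HLA-DRA and of the cytokine response genes SOCS3, PIM1, PIM2 and BCL3, and lower levels of TNF, PDGFA, replication histones, DNA replication enzymes and mitotic regulators. MYC was higher than in untreated cells by 0.47 on the log2 scale. Of 65 ribosome production genes, 59 were lower by a small amount, where 31.6% of all genes were lower. Compared directly with quizartinib in RPMI, 57 of 60 replication genes were higher and 48 of 62 mitotic genes lower in the treated hBMSC-CM cells. Over all genes, 35.5% were higher and 34.3% lower in that direct comparison.

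Of the 12998 genes, 8075 (62.1%) had a Benjamini-Hochberg adjusted p under 0.05 in edgeR's quasi-likelihood test, and such genes are called changed below. In all, 3971 (30.6%) were higher and 4104 (31.6%) lower in treated hBMSC-CM cells than in untreated RPMI cells. These shares are the background for every list count against untreated RPMI cells given below. The 3 values of each group did not overlap for 4251 genes in the upward direction (32.7%) and 4373 in the downward direction (33.6%). Most changes were small, with a median absolute log2 fold change of 0.25 and a median SE of 0.07 over all genes tested. A fitted change of at least 2-fold was reached by 526 called genes in the upward direction (4.05%) and 290 in the downward direction (2.23%), and 107 and 19 reached 4-fold. Among the 9288 genes averaging 10 CPM or more, 179 rose and 199 fell by at least 2-fold. Scaling by library size alone, in place of TMM, shifted the median of all genes from 0.01 to 0.09 and the share of called genes that were higher from 49.2% to 62.1%.

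**Figure D1:**
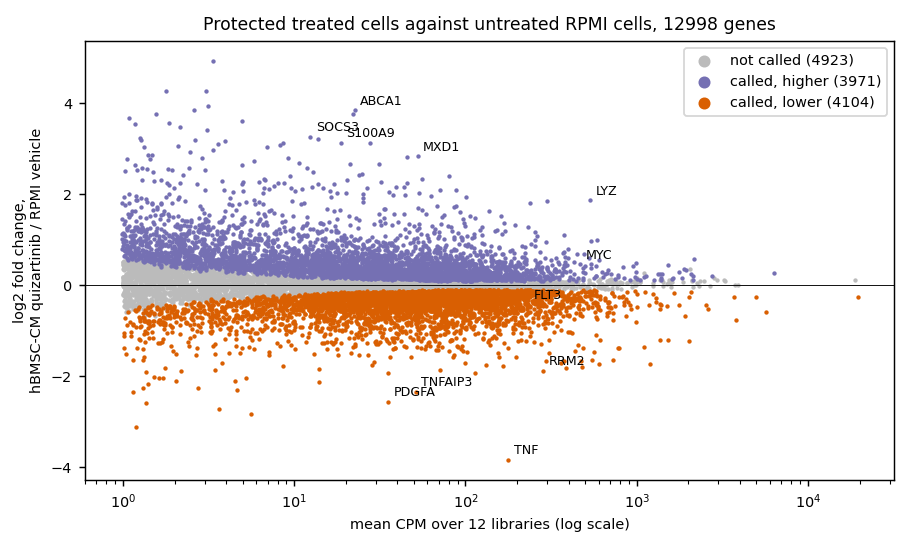
Log2 fold change of treated hBMSC-CM cells against untreated RPMI cells (y axis) by mean CPM over the 12 libraries (x axis, log scale), 1 point per gene. Points of the 3971 higher and 4104 lower genes lie on both sides of 0 with a median over all genes of 0.01, and TNF lies lowest at -3.83.

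The 10 largest increases among genes with at least 10 CPM were ABCA1, NFE2, SOCS3, APOL4, S100A9, HLA-DRA, MXD1, TYMP, SYTL3 and PIK3R6, with log2 fold changes from 2.66 to 3.85. ABCA1, the membrane transporter that passes cholesterol to apolipoproteins (chr9:104781006-104928155, minus strand, GENCODE annotation of GRCh38), had 2.84, 4.11 and 3.04 CPM in untreated RPMI cells and 46.3, 49.3 and 48.3 CPM in treated hBMSC-CM cells. The groups were far apart and all 3 treated libraries were also above the other 9. Its log2 fold change was 3.85 ± 0.11 (SE, n = 3 per group, adjusted p = 6.27e-18, edgeR's quasi-likelihood test). Against the same untreated cells, its change was 2.25 with quizartinib in RPMI and 2.80 with hBMSC-CM alone, contrasts that share the untreated libraries.

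NFE2 encodes a transcription factor of the erythroid and megakaryocytic lineages that myeloid cells also express (chr12:54292111-54301015). Its CPM was 4.07, 4.38 and 4.06 in untreated RPMI cells and 58.4, 53.03 and 58.2 in treated hBMSC-CM cells. No library of any other condition came near these, since the means were 11.2 CPM in RPMI with quizartinib and 16.1 CPM in hBMSC-CM with vehicle. The log2 fold change was 3.76 ± 0.09 (adjusted p = 6.97e-19, edgeR's quasi-likelihood test). MXD1, which encodes a MAX partner that opposes MYC at shared DNA sites and is induced when myeloid cells mature (chr2:69897688-69942945), had 18.1, 17.6 and 17.3 CPM in untreated RPMI cells and 126, 127 and 127 CPM in treated hBMSC-CM cells, a log2 fold change of 2.84 ± 0.05 (adjusted p = 2.65e-20, edgeR's quasi-likelihood test). Each single condition moved it less, by 0.86 with the drug in RPMI and by 0.92 with the medium alone.

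TYMP, thymidine phosphorylase, rose from 14.6, 13.7 and 13.7 CPM to 97.4, 98.0 and 101 CPM. PIK3R6 encodes a regulatory subunit of PI3K gamma, the PI3-kinase of leukocytes downstream of G protein-coupled receptors. It had 6.19, 7.78 and 6.82 CPM in untreated RPMI cells against 41.3, 45.0 and 45.5 CPM. SYTL3, a synaptotagmin-like protein of vesicle trafficking, went from 3.56, 3.95 and 3.60 CPM to 22.2, 25.2 and 23.9 CPM. For all 3 genes the treated hBMSC-CM libraries were above the 9 other libraries. APOL4, an apolipoprotein L gene next to close relatives on chromosome 22, had 4.03, 3.60 and 4.24 CPM against 37.4, 36.1 and 35.7 CPM, and reads shared with its relatives make its level uncertain.

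TNF, which encodes the inflammatory cytokine tumor necrosis factor (chr6:31575565-31578336), showed the largest decrease. Its level was 350, 336 and 355 CPM in untreated RPMI cells and 22.5, 23.6 and 27.5 CPM in treated hBMSC-CM cells, with no overlap between the groups. It fell by 3.83 ± 0.06 on the log2 scale (adjusted p = 1.61e-20, edgeR's quasi-likelihood test). With quizartinib in RPMI its mean was 13.4 CPM and with hBMSC-CM alone 327 CPM. TNFAIP3, which encodes the A20 protein that restrains NF-kB, fell from 101, 103 and 106 CPM to 20.5, 20.4 and 20.6 CPM, a log2 fold change of -2.33 ± 0.05.

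PDGFA, a chain of platelet-derived growth factor (chr7:497258-520296), differed from TNF in its order of levels. It had 66.8, 68.7 and 68.6 CPM in untreated RPMI cells and 11.9, 11.2 and 11.7 CPM in treated hBMSC-CM cells, and all 3 treated values lay below the 9 others. Its means were 21.5 CPM with quizartinib in RPMI and 39.96 CPM with hBMSC-CM alone, and its fall was 2.55 ± 0.06 on the log2 scale (adjusted p = 1.38e-18, edgeR's quasi-likelihood test). S1PR3, a receptor for the lipid mediator sphingosine 1-phosphate, had 21.6, 22.3 and 20.7 CPM in untreated RPMI cells and 6.73, 5.44 and 5.90 CPM in treated hBMSC-CM cells.

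The other large decreases included genes of DNA synthesis. RRM2, the small subunit of ribonucleotide reductase that supplies deoxynucleotides, fell from 486, 473 and 482 CPM to 129, 134 and 129 CPM. E2F7, a repressor among the E2F factors and itself an E2F target, fell from 58.2, 60.4 and 59.5 CPM to 16.4, 14.4 and 15.7 CPM. KIF21B, a microtubule motor of the kinesin family that is on none of the cell cycle lists, fell from 174, 177 and 187 CPM to 46.2, 49.7 and 46.3 CPM. Replication-dependent histone genes completed the list, with HIST1H3J at 608, 593 and 623 CPM against 179, 160 and 177 CPM, HIST1H3A at a log2 fold change of -1.86 and HIST1H2BM at -2.13. Histone messages mostly lack a poly-A tail and have near-identical copies, so that their counts in poly-A libraries are uncertain.

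**Figure D2:**
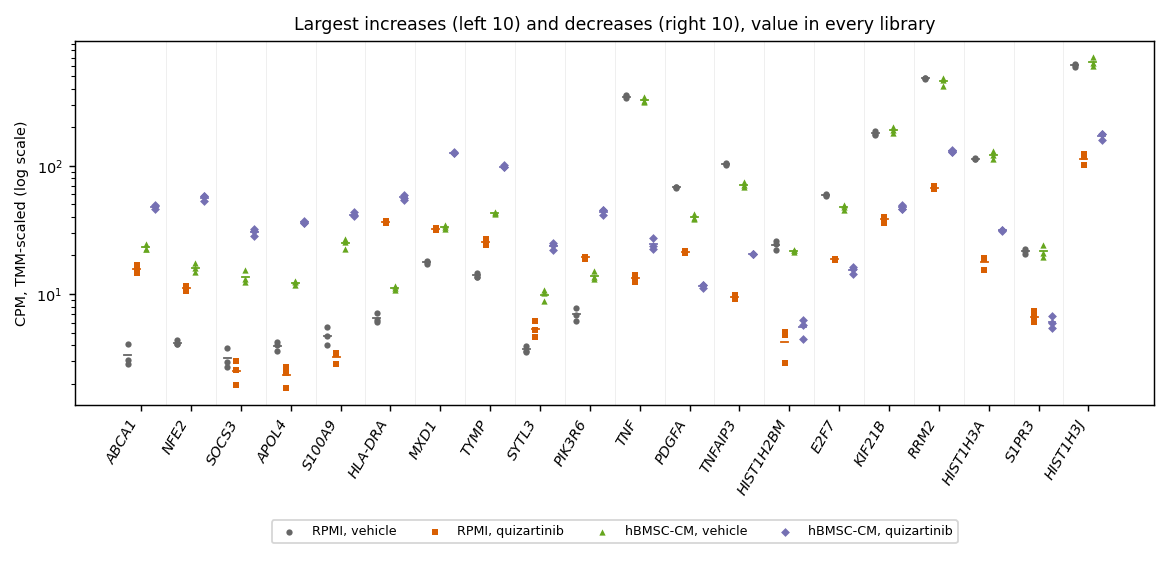
CPM in each library (y axis, log scale) of the 10 largest increases and 10 largest decreases, with 3 points per condition and a bar at the mean. All 10 increased genes have their treated hBMSC-CM points above every untreated RPMI point, and TNF falls from between 336 and 355 CPM to between 22.5 and 27.5 CPM.

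The kinase FLT3 itself was lower in the treated hBMSC-CM cells. Its transcript had 208, 213 and 206 CPM in untreated RPMI cells and 162, 157 and 151 CPM in treated hBMSC-CM cells, without overlap, and fell by 0.42 ± 0.04 on the log2 scale (adjusted p = 2.13e-08, edgeR's quasi-likelihood test). With quizartinib in RPMI its mean was higher, at 454 CPM, and with hBMSC-CM alone lower, at 113 CPM. No gene was knocked out or knocked down in these 12 libraries, and the drug acts on the protein, so the transcript level is no check of the labels.

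Genes downstream of MAPK signaling ended below the untreated level. Of 18 feedback genes and PEA3-family ETS factors tested, 13 were called lower and 4 higher, with a median log2 fold change of -0.54 beside 0.01 over all genes. ETV4, a PEA3 factor, had 45.3, 43.2 and 43.5 CPM in untreated RPMI cells and 12.1, 12.8 and 14.5 CPM in treated hBMSC-CM cells, a log2 fold change of -1.75 ± 0.07. Its mean with quizartinib in RPMI was 1.32 CPM. DUSP6, the phosphatase that removes the activating phosphates of ERK, fell from 92.2, 93.3 and 92.3 CPM to 66.7, 70.8 and 70.3 CPM, by 0.42 ± 0.05 on the log2 scale, and its mean in RPMI with quizartinib was 21.0 CPM. The other ERK phosphatase DUSP5 (-2.03, at a mean below 10 CPM) and the AP-1 subunit FOSL1 (-1.04) were lower as well. IER3, an early response gene, ran the other way, with 25.7, 24.8 and 24.9 CPM against 38.7, 38.3 and 42.7 CPM (log2 fold change 0.66). The early response factor EGR1 was called higher at 0.40 ± 0.17, although its values overlapped, with 10.1, 9.04 and 12.5 CPM against 9.46, 15.6 and 16.9 CPM.

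STAT5 and cytokine response genes ended above it. Of 22 tested, 16 were called higher and none lower, where 30.6% of all genes were higher and 31.6% lower. The rise was 2-fold or more for 7 of them, and the list's median log2 fold change was 0.68. Its median was 0.66 with hBMSC-CM alone and -0.18 with quizartinib in RPMI. Within hBMSC-CM, the median change with the drug against vehicle was 0.03. SOCS3, an inhibitor of JAK kinases that is induced by the cytokines it restrains (chr17:78356778-78360077), had 2.97, 3.79 and 2.72 CPM in untreated RPMI cells and 30.8, 28.1 and 32.4 CPM in treated hBMSC-CM cells. Every treated library was above all others, and the log2 fold change was 3.26 ± 0.13 (adjusted p = 2.77e-15, edgeR's quasi-likelihood test). PIM1 and PIM2 encode survival kinases that act downstream of STAT5. PIM1 went from 30.1, 33.1 and 29.3 CPM to 157, 161 and 172 CPM, whereas its log2 fold change with quizartinib in RPMI was -1.34. PIM2 (chrX:48913182-48919024) went from 8.69, 7.90 and 8.39 CPM to 41.1, 36.9 and 39.6 CPM, while its means were 5.18 CPM in RPMI with drug and 15.2 CPM in hBMSC-CM with vehicle.

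CISH, a further SOCS-family inhibitor, rose by 1.24 ± 0.07 and the cytokine oncostatin M (OSM) by 2.02 ± 0.09 on the log2 scale. Other members of the list moved less. BCL2L1, the gene of the survival protein BCL-XL, had a log2 fold change of -0.08, PIM3 of -0.03 and IRF1 of -0.09, and none of these was called. Over the list, 6 members lay above the 9 other libraries in all 3 treated hBMSC-CM libraries (STAT3, CISH, PIM2, PIM1, BCL3 and SOCS3), and 577 of all genes did (4.44%).

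STAT5 and other STAT dimers bind palindromes of the form TTCNNNGAA, so the sequence upstream of these genes is of interest. The 250 bases before the start were taken from RefSeq on GRCh38.p14 for 19 of the 22 genes. TTCNNNGAA, which reads the same on both strands, occurred in 3 of the 19 (15.8%), namely CISH, BCL6 and IRF1. It occurred in 5.62% of the 9323 promoters matched to tested genes and in 6.78% of all 27305 promoters in the RefSeq table. Its share was 11.1% for mitotic genes and 9.62% for replication genes, whose levels fell, and 5.56% for nucleolar genes. These shares were not tested. The E-box CACGTG, also the same on both strands, was the other motif searched. It occurred in 0 of the 19, against 9.38% of the promoters of tested genes and 6.49% of all promoters. The E-box share was 14.8% for nucleolar, 13.0% for mitotic and 11.5% for replication genes, also not tested. The genes with the largest changes and those standing widest apart from the 9 other libraries were searched for TTCNNNGAA as well. Among those with a promoter found, only LRG1 held a match, 1 in number. It encodes a secreted leucine-rich glycoprotein of neutrophils, is not on the list and stood above all 9 other libraries. Stretches around the matches are shown 5′ to 3′ on the gene's strand, with the matches in capitals, for the genes among these that were called. CISH held 4 matches, starting 241 to 112 bases before its start (chr3:50611848-50612024, minus strand), BCL6 1 match starting 28 bases before (chr3:187745469-187745526, minus strand) and LRG1 1 match starting 162 bases before (chr19:4540160-4540228, minus strand).
CISH: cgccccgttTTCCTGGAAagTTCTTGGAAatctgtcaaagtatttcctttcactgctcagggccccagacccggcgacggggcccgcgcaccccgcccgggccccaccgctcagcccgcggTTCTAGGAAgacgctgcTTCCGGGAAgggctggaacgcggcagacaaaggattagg
BCL6: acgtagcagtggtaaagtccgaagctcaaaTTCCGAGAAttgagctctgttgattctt
LRG1: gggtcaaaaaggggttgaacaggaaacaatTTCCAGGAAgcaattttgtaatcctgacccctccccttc
A match describes the letters in the window and is not a binding site. CISH had 46.0, 44.5 and 48.7 CPM in untreated RPMI cells and 99.1, 115 and 114 CPM in treated hBMSC-CM cells, and LRG1 had 11.9, 10.99 and 10.3 CPM against 74.3, 64.9 and 70.3 CPM. IRF1, with 1 match, had 52.7, 52.8 and 53.02 CPM against 49.3, 49.7 and 50.2 CPM, so a match in the window did not go with a higher level in every case.

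Receptors and signal transducers of cytokines were mostly higher. Of 33 tested, 25 rose and 6 fell, with a median of 0.27. IL10RA, a subunit of the interleukin-10 receptor, rose from 15.2, 16.9 and 14.8 CPM to 74.0, 67.6 and 68.5 CPM. Its mean in RPMI with quizartinib was 67.6 CPM. TGFBR1, the signaling receptor of TGF-beta, fell from 151, 156 and 151 CPM to 58.8, 57.0 and 57.4 CPM, below the 9 other libraries. The interferon signal transducer STAT2 rose by 1.33 and JAK3 by 1.26, while STAT5A rose by 0.37.

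MYC, the transcription factor that drives ribosome production and growth, ended above the untreated level. It had 440, 413 and 435 CPM in untreated RPMI cells and 583, 585 and 616 CPM in treated hBMSC-CM cells, without overlap, a log2 fold change of 0.47 ± 0.04 (adjusted p = 1.16e-08, edgeR's quasi-likelihood test). Its mean was 50.5 CPM with quizartinib in RPMI and 787 CPM with hBMSC-CM alone. Of 10 genes of the MAX network tested, 7 were higher and 2 lower. The MYC antagonist MXD1 showed the largest change of the network, as given above, and MXD3 fell from 20.6, 20.2 and 20.8 CPM to 14.7, 15.1 and 13.3 CPM.

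Nucleolar genes of ribosome production did not follow MYC above the untreated level. Of 65 tested, 59 were lower and none higher, but by little, with a median log2 fold change of -0.36 and none lower by 2-fold. UTP20, a component of the small-subunit processome, had 154, 156 and 156 CPM in untreated RPMI cells and 92.8, 99.6 and 85.8 CPM in treated hBMSC-CM cells, a log2 fold change of -0.74 ± 0.05 (adjusted p = 1.31e-11, edgeR's quasi-likelihood test). The snoRNP core protein NOP56 changed by -0.58 and nucleolin (NCL) by -0.41. The same list had a median of -1.51 with quizartinib in RPMI. Compared directly with those cells, from which it shares the treated hBMSC-CM libraries, 63 of 65 were higher and none lower in hBMSC-CM, when 35.5% of all genes were higher and 34.3% lower in that comparison.

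Protein synthesis and turnover genes showed the same small deficit. Of 22 cytosolic tRNA synthetase genes, 19 were lower and none higher (median -0.32), with the methionyl enzyme MARS at 292, 282 and 283 CPM against 165, 158 and 157 CPM. Proteasome subunits gave 30 lower and none higher of 34 (median -0.26), led by the ATPase subunit PSMC3, which fell from 217, 205 and 206 CPM to 137, 138 and 136 CPM. EIF4G1, the scaffold of the cap-binding complex, fell by 0.50 ± 0.05 on the log2 scale, and the kinase gene MTOR by 0.25 ± 0.04. Cytosolic ribosomal protein genes did not share the deficit, with 29 of 78 higher and 6 lower and a median of 0.09. These genes have many processed copies, so single members such as RPL26 (0.62) and RPS26 (-0.65) are uncertain.

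ATF4 targets and serine synthesis genes were lower in 28 of 33 cases and higher in 3, with a median of -0.61. PSAT1, an enzyme of serine synthesis, fell from 133, 122 and 127 CPM to 40.8, 46.8 and 45.6 CPM, a log2 fold change of -1.53 ± 0.05. PHGDH, the first enzyme of that pathway, had 305, 273 and 294 CPM against 122, 127 and 122 CPM, and ATF4 itself had 456, 448 and 451 CPM against 305, 270 and 287 CPM. For both, the treated hBMSC-CM libraries were below the 9 others. DDIT4, an inhibitor of mTORC1 that ATF4, hypoxia and glucocorticoids can induce, rose from 90.1, 90.1 and 87.3 CPM to 202, 194 and 214 CPM. The cystine transporter SLC7A11 rose by 0.74.

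DNA replication genes and E2F targets made up the list with the lowest median, -0.92. Of 60 tested, 59 were lower, 26 of them by 2-fold or more, and 1 was higher. The initiation factor CDC6, which loads the MCM helicase, had 146, 150 and 145 CPM in untreated RPMI cells and 61.5, 55.7 and 54.0 CPM in treated hBMSC-CM cells, a log2 fold change of -1.36 ± 0.05 (adjusted p = 1.27e-15, edgeR's quasi-likelihood test). Cyclin E2 (CCNE2) fell from 78.5, 87.5 and 78.2 CPM to 27.0, 29.1 and 25.4 CPM, and E2F1 from 58.7, 58.6 and 57.5 CPM to 26.1, 23.0 and 26.1 CPM. ORC2, the member called higher, differed by 0.14 ± 0.05 and lost the call without replicates 1 or 2 of either group, with adjusted p from 0.0604 to 0.133 in edgeR's quasi-likelihood test. With quizartinib in RPMI the list's median was -1.81 and CDC6 averaged 14.4 CPM. Against those cells 57 of 60 were higher in hBMSC-CM with drug and none lower, where 35.5% of all genes were higher and 34.3% lower.

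Mitotic and spindle genes lay further below the untreated level than they did with quizartinib in RPMI. All 62 tested were lower than in untreated RPMI cells, with log2 fold changes between -1.40 and -0.18 and a median of -0.79, and 14 of them by 2-fold or more. In 45 of the 62 the 3 treated hBMSC-CM libraries lay below the 9 other libraries, and in 477 of all genes (3.67%). Without replicate 1 of the treated hBMSC-CM cells the counts were 62 lower and 49 below all others, an alternative added after the data were seen. With 1 treated library fewer, lying below all others is easier to meet, so the rise from 45 lends no support. The medians of the same genes were -0.48 with quizartinib in RPMI and -0.18 with hBMSC-CM alone. Tested directly against quizartinib in RPMI, 48 were lower and 5 higher in hBMSC-CM with drug, with a median of -0.31, where 34.3% and 35.5% of all genes were lower and higher.

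PLK1, the polo-like kinase of mitotic entry, had 180, 158 and 172 CPM in untreated RPMI cells and 84.3, 94.3 and 95.04 CPM in treated hBMSC-CM cells, and fell by 0.90 ± 0.06 on the log2 scale (adjusted p = 3.87e-11, edgeR's quasi-likelihood test). The spindle kinase AURKA fell from 128, 136 and 129 CPM to 84.5, 78.3 and 75.8 CPM, and cyclin B1 (CCNB1) from 202, 194 and 194 CPM to 126, 118 and 109 CPM. All 3 genes lay below the 9 other libraries. ESPL1, the separase that releases sister chromatids, had 99.2, 98.8 and 101 CPM against 41.5, 40.5 and 43.0 CPM. HJURP, the chaperone that places the centromeric histone CENPA, had 130, 128 and 128 CPM against 50.1, 50.6 and 51.9 CPM. CDC25C, the phosphatase that activates CDK1 for mitosis, had 22.1, 25.4 and 23.7 CPM against 12.7, 11.5 and 10.9 CPM, and its means were 21.4 CPM in RPMI with drug and 19.0 CPM in hBMSC-CM with vehicle. CDCA5, the cohesin protector sororin, showed the list's largest fall among genes with at least 10 CPM at -1.40 ± 0.05, and CENPF, a kinetochore protein, the smallest at -0.18.

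Checkpoint kinase genes fell too. CHEK1 went from 97.9, 98.4 and 98.9 CPM to 49.9, 47.3 and 45.5 CPM (-1.05 ± 0.05) and WEE1, which holds CDK1 inactive, from 64.0, 68.4 and 68.1 CPM to 38.5, 38.7 and 37.0 CPM (-0.81 ± 0.05). ATM, the kinase that answers DNA double-strand breaks, rose by 0.19 ± 0.05 (adjusted p = 0.00126, edgeR's quasi-likelihood test), from 176, 191 and 188 CPM to 202, 221 and 212 CPM. Among 29 p53 targets and DNA damage genes, 13 were lower and 6 higher, with H2AFX at -1.07 and TP53INP1 at 0.68. Among 26 CDK inhibitor and quiescence genes, 15 were higher and 4 lower (median 0.29). TXNIP, a glucose-sensitive arrestin-like protein, rose from 134, 145 and 133 CPM to 307, 291 and 277 CPM. The p21 gene CDKN1A rose by 0.28 and lay above the 9 other libraries, and RBL1, the p107 pocket protein and an E2F target, fell by 0.78 on the log2 scale.

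**Figure D3:**
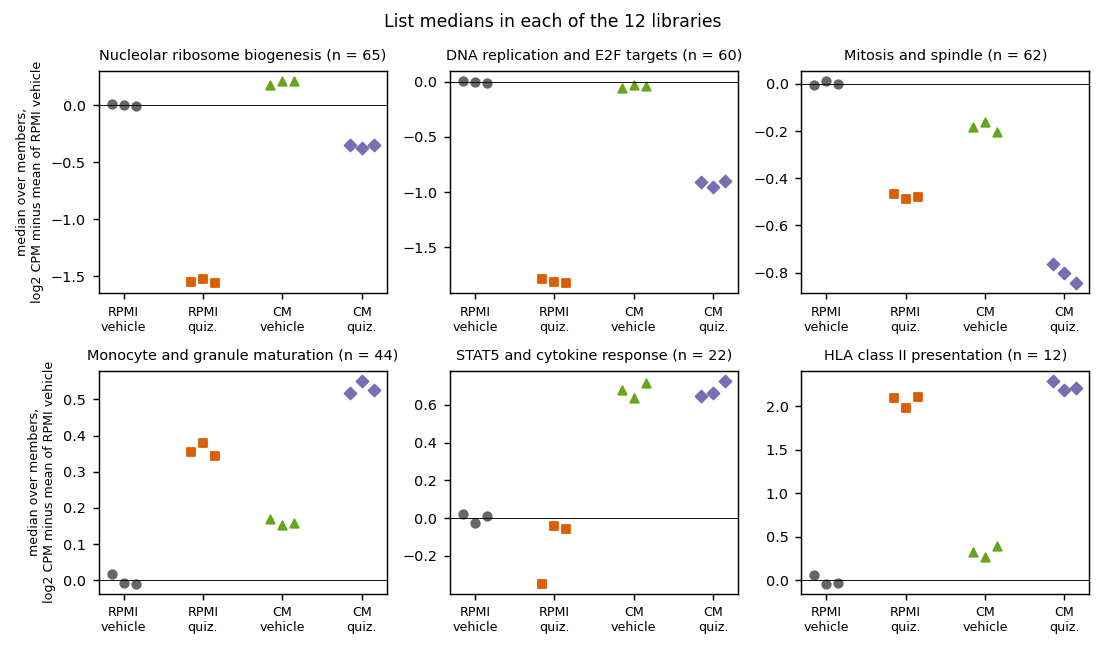
Median over each list of the log2 CPM minus its mean in untreated RPMI cells (y axis), 1 point for each of the 12 libraries. For mitotic genes the treated hBMSC-CM points lie lowest (-0.76, -0.80 and -0.85), while for replication and nucleolar genes they lie between the untreated points and those of quizartinib in RPMI.

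Monocyte and granule genes were mostly higher. Of 44 tested, 33 were higher and 2 lower, 16 by 2-fold or more, with a median of 0.50, and 17 lay above the 9 other libraries in all treated hBMSC-CM libraries. S100A9, a calcium-binding alarmin of neutrophils and monocytes (chr1:153357854-153361023), had 4.68, 5.52 and 4.01 CPM in untreated RPMI cells and 43.5, 41.3 and 40.4 CPM in treated hBMSC-CM cells. Its log2 fold change was 3.13 ± 0.10 (adjusted p = 1.45e-16, edgeR's quasi-likelihood test), with means of 3.24 CPM in RPMI with drug and 24.9 CPM in hBMSC-CM with vehicle. Lysozyme (LYZ) rose by 1.87, from 273, 293 and 260 CPM to 1068, 953 and 1009 CPM. Azurophil granule proteases rose as well, with neutrophil elastase (ELANE) going from 61.4, 53.6 and 59.7 CPM to 148, 160 and 174 CPM and proteinase 3 (PRTN3) from 93.1, 93.5 and 101 CPM to 264, 272 and 289 CPM. CYBB, the catalytic subunit of the phagocyte NADPH oxidase, rose by 1.51. FCGR1A, the high-affinity IgG receptor, fell from 14.1, 14.0 and 13.6 CPM to 11.2, 8.52 and 8.72 CPM, and the integrin gene ITGB2 from 433, 425 and 415 CPM to 317, 291 and 310 CPM.

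Of 13 myeloid identity markers tested, 7 were higher, 2 (FCGR1A and FLT3) lower and 4 not called, with a median of 0.21. Their summed level was 1342 to 1393 CPM in untreated RPMI cells and 2360 to 2517 CPM in treated hBMSC-CM cells, to which LYZ added a mean of 275 and 1009.8 CPM. CSF1R, the receptor that directs monocytes and macrophages, went from 27.4, 20.4 and 25.6 CPM to 86.2, 97.5 and 101 CPM, and quizartinib in RPMI gave a mean of 99.2 CPM. HOX and progenitor genes were split, with 7 of 18 higher and 7 lower. LYL1, a transcription factor of progenitors, fell from 42.3, 39.1 and 41.2 CPM to 29.4, 26.7 and 31.8 CPM, and BLNK, a B cell adaptor, rose by 0.68, where quizartinib in RPMI gave 3.34.

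HLA class II genes rose by the largest median of the lists, 2.29, with 10 of 12 tested higher and 1 lower, 8 by 2-fold or more. HLA-DRA, the alpha chain of HLA-DR (chr6:32439878-32445046), had 7.18, 6.26 and 6.04 CPM in untreated RPMI cells and 59.6, 54.4 and 56.0 CPM in treated hBMSC-CM cells. Its log2 fold change was 3.12 ± 0.07 (adjusted p = 1.38e-18, edgeR's quasi-likelihood test). CIITA, the coactivator that turns these genes on, had 5.74, 6.22 and 5.21 CPM against 28.6, 31.3 and 34.0 CPM. Quizartinib in RPMI gave a list median of 2.13 and hBMSC-CM alone 0.38. CIITA was lower in hBMSC-CM with drug than in RPMI with drug (-0.87) while HLA-DRA was higher (0.63). HLA genes are polymorphic and have close relatives, so counts of single members are uncertain.

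Interferon targets were higher in 27 of 37 cases and lower in 3, with a median of 0.52. The list's median was 0.85 with quizartinib in RPMI and 0.07 with hBMSC-CM alone. Tested directly against quizartinib in RPMI, 19 were lower and 9 higher in hBMSC-CM with drug, with a median of -0.30. In that comparison 34.3% of all genes were lower and 35.5% higher. SAMHD1, a hydrolase of deoxynucleotides, rose from 45.5, 46.5 and 46.9 CPM to 160, 152 and 152 CPM and stood above the 9 others. SLAMF8, a myeloid surface receptor, fell from 18.2, 13.6 and 18.3 CPM to 10.4, 11.98 and 13.1 CPM. USP18, which limits interferon signaling and averaged below 10 CPM, fell by 1.32 on the log2 scale. NF-kB and inflammatory genes went both ways, with 10 of 31 higher (32.3%) and 14 lower (45.2%), beside 30.6% and 31.6% of all genes. Their median of -0.07 became 0.02 when scaled by library size only. TLR4, the receptor of bacterial endotoxin, rose from 34.3, 36.9 and 36.1 CPM to 74.0, 73.8 and 72.5 CPM. The neutrophil chemokine CXCL8, which averaged below 10 CPM, rose by 1.25 and ICAM1, an adhesion molecule, by 0.98. In contrast, TNF, TNFAIP3 and the dendritic marker CD83 (-1.18) fell.

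Lipid and lysosome genes were mostly higher. Of 15 LXR targets and efflux genes, 13 were higher and 1 lower, with a median of 0.55. The fatty acid receptor CD36 rose by 2.43, from 5.13, 6.42 and 5.44 CPM to 30.6, 30.2 and 30.9 CPM. FABP5, a fatty acid carrier, fell from 98.8, 94.6 and 102 CPM to 58.2, 62.1 and 58.2 CPM. Of 43 lysosome genes, 31 were higher and 3 lower (median 0.25), led by the protease cathepsin L (CTSL) with 32.3, 33.6 and 33.2 CPM against 64.7, 57.8 and 56.2 CPM. Cholesterol synthesis genes were near the untreated level, with 4 of 24 higher, 8 lower and a median of 0.02, a sign that turned without replicate 1 of the treated hBMSC-CM cells (-0.02) or replicate 2 of the untreated RPMI cells (-0.003).

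Glycolysis genes were lower in 12 of 26 cases and higher in 6. PFKP, the platelet-type phosphofructokinase, fell from 302, 302 and 307 CPM to 163, 156 and 164 CPM. PFKFB3, which makes the activator of phosphofructokinase, rose from 47.4, 42.1 and 45.8 CPM to 94.7, 101 and 107 CPM, above all other libraries. Among 14 hypoxia targets 7 rose and 2 fell, with the repressor BHLHE40 at 18.9, 16.2 and 15.8 CPM against 67.6, 79.4 and 82.1 CPM and VEGFA falling by 0.31 on the log2 scale.

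Nuclear genes of the respiratory chain were lower in 35 of 76 cases and higher in 8, with a median of -0.12 and none changed by 2-fold. ATP5MC1, a subunit of the c ring of ATP synthase, fell from 77.7, 72.1 and 71.1 CPM to 43.4, 39.1 and 39.9 CPM, while the complex I subunit NDUFC1 rose from 26.7, 27.1 and 25.9 CPM to 43.5, 44.3 and 46.9 CPM. Of 13 mitochondrially encoded mRNAs, 2 were called higher and none lower, and 6 were called higher without replicate 1 of the treated hBMSC-CM cells, the library with the lower mitochondrial share. MT-ATP8 had 7.90, 10.2 and 9.59 CPM against 10.8, 15.7 and 15.9 CPM. NRF2 and antioxidant genes were split, with 7 of 18 higher and 8 lower and the same change of sign of the median with library size only, and included glutathione reductase (GSR) at 183, 189 and 183 CPM against 98.6, 98.3 and 98.0 CPM. Unfolded protein response genes gave 11 of 31 higher (35.5%) and 4 lower (12.9%), beside 30.6% and 31.6% of all genes. An interval inside 1.2-fold was found for 19 of the 31, and for 24.3% of all genes.

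Among BCL2 family genes, 5 of 17 were higher (29.4%) and 7 lower (41.2%), beside 30.6% and 31.6% of all genes. Called changes of 2-fold or more were 2 higher and 1 lower, and the family's highest log2 fold change was 3.03. MCL1, the survival protein of myeloid cells, had 288, 295 and 291 CPM in untreated RPMI cells and 292, 300 and 287 CPM in treated hBMSC-CM cells. The groups overlapped, and the 95% interval of its log2 fold change ran from -0.07 to 0.09. BMF, a death-promoting BH3-only protein, had the largest called rise among family members averaging 10 CPM or more. It rose from 51.9, 55.4 and 51.8 CPM to 138, 130 and 141 CPM, a log2 fold change of 1.36 ± 0.05, while quizartinib in RPMI gave a mean of 447 CPM. PMAIP1, the BH3-only protein NOXA, fell from 28.8, 30.6 and 30.3 CPM to 13.5, 13.3 and 13.7 CPM, below the 9 other libraries. BCL2 had 216, 227 and 225 CPM against 118, 121 and 122 CPM.

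Homing and adhesion receptors gave 10 of 20 higher and 4 lower. CCR2, the monocyte chemokine receptor, rose from 32.5, 32.2 and 30.8 CPM to 104, 96.9 and 98.6 CPM, above all other libraries. The marrow homing receptor CXCR4 rose by 1.18, from 102, 98.1 and 97.2 CPM to 233, 224 and 218 CPM.

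**Figure D4:**
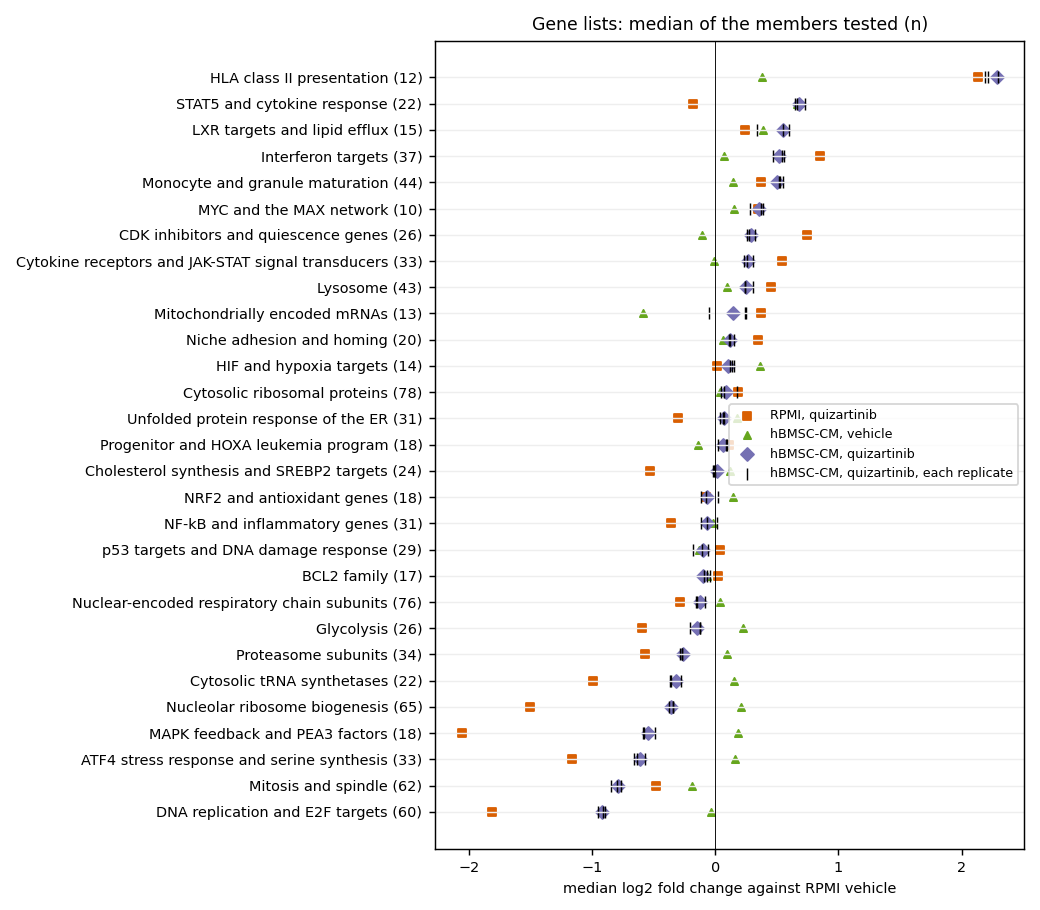
Median log2 fold change against untreated RPMI cells (x axis) of the members tested in each list (y axis, number in parentheses), for the 3 other conditions, which share the untreated libraries, with ticks for each treated hBMSC-CM replicate. HLA class II genes lie highest at 2.29 and replication genes lowest at -0.92 for treated hBMSC-CM cells, and mitotic genes are further left in these cells (-0.79) than with quizartinib in RPMI (-0.48).

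For 3153 genes (24.3%), moved by the drug in RPMI or not, the whole 95% interval of the difference from untreated cells lay inside 1.2-fold. Among the other genes, 2396 were neither called nor inside that interval, so that for them the data show neither a change nor its absence, and 626 genes were called although their interval lay inside it. The genes named next were taken from those inside the 1.2-fold interval, as the ones that quizartinib in RPMI moved most. Their closeness to the untreated level was thus fixed by the choice, and their positions are a description. RPS6KA2, a kinase of the RSK family, had 22.2, 22.7 and 22.1 CPM in untreated RPMI cells and 22.5, 23.7 and 21.3 CPM in treated hBMSC-CM cells, with overlapping groups, where quizartinib in RPMI gave a mean of 77.0 CPM. HDAC5, a class IIa histone deacetylase, had 90.4, 90.2 and 91.2 CPM against 91.8, 83.1 and 93.8 CPM and a mean of 232 CPM in RPMI with drug. ITM2C, SYNPO2 and PHLDB1 followed the same order, with changes of 0.06, 0.00 and -0.02 against 1.59, 1.40 and 1.36 in RPMI with drug.

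Genes that the drug lowered in RPMI were chosen in the same way. SLC2A3, the glucose transporter GLUT3, had 75.3, 77.5 and 74.7 CPM in untreated RPMI cells and 79.5, 74.7 and 74.4 CPM in treated hBMSC-CM cells, and a mean of 19.6 CPM in RPMI with drug. ELOVL6, which elongates fatty acids, had 33.8, 34.3 and 33.0 CPM against 32.8, 33.4 and 34.0 CPM, and 9.02 CPM in RPMI with drug. With hBMSC-CM alone both were above untreated cells, by 0.64 and 0.42 on the log2 scale. FAM129B changed by -0.07. TRAF3, an adaptor that limits non-canonical NF-kB signaling, changed by -0.14 and NCR3LG1, a ligand of an activating receptor of natural killer cells, by -0.14. Both were called at adjusted p = 0.0355 and 0.0231 (edgeR's quasi-likelihood test) within the 1.2-fold interval, but lost these calls when single libraries were left out. For TRAF3 this held for each library except replicate 2 of the untreated RPMI cells (adjusted p from 0.0548 to 0.116), and for NCR3LG1 for replicate 1 of the treated hBMSC-CM cells and replicates 2 and 3 of the untreated RPMI cells (0.0579 to 0.133).

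**Figure D5:**
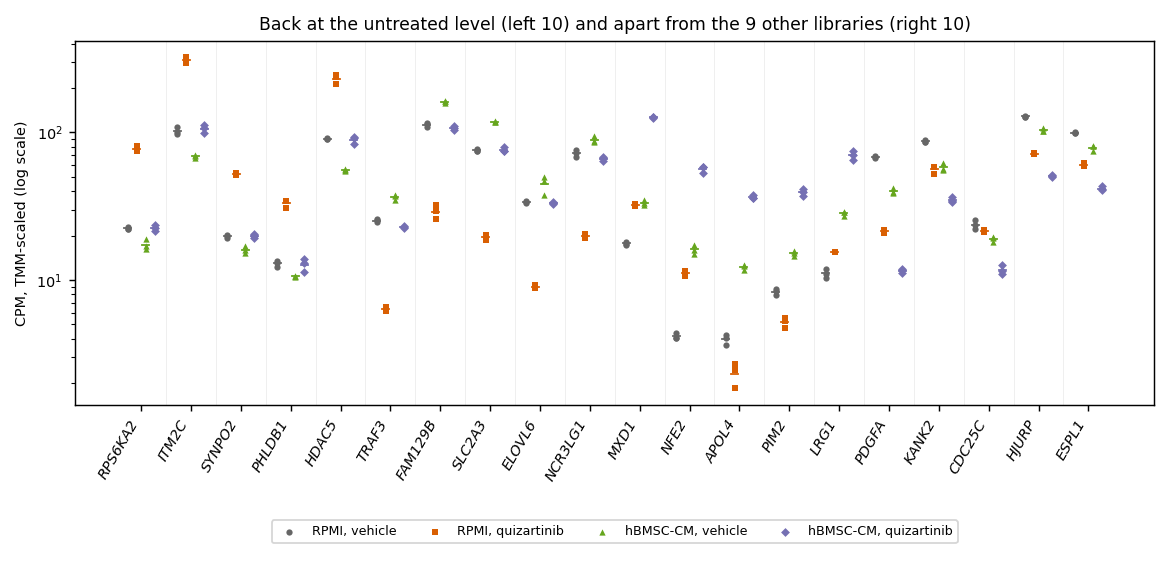
CPM in each library (y axis, log scale), with 3 points per condition and a bar at the mean. Shown are 10 genes chosen for an interval inside 1.2-fold of the untreated level and 10 genes on 1 side of all 9 other libraries. Of the first 10, TRAF3 and NCR3LG1 were nevertheless called lower than in untreated cells. SLC2A3 lies between 74.4 and 79.5 CPM in both groups compared but averages 19.6 CPM with quizartinib in RPMI, and MXD1 reaches 126 to 127 CPM only with drug and medium together.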

How the data were processed

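Poly-A RNA libraries of MOLM-13 cells were sequenced in pairs of reads. Per the study's methods and the submitters' processing notes, the authors trimmed reads with BBDuk, aligned them and counted genes with STAR 2.6.0a on hg38, summed IDs sharing a gene name, and deposited raw counts in 1 table. The sources used here do not state a strand setting, so overlapping and antisense genes are uncertain.

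Counts were tested as deposited in edgeR 4.0.16 (R 4.3.3) with TMM scaling, 1 model of 4 group means over all 12 libraries (8 residual degrees of freedom) and the quasi-likelihood test, two-sided, with Benjamini-Hochberg adjustment over 12998 genes. Intervals are 95% from the fit. The study used limma, here an alternative (3.58.1), as was DESeq2 1.42.0. Totals were 19966546 to 31546104 counts. The intervals cover counting error and the spread between these libraries, while the floors cover counting error only. The fit was tested on simulated data first.

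Named genes were the 10 largest called changes in each direction, the largest in each of 32 lists, the 5 on each side standing widest apart from the 9 other libraries, the 5 in each direction that quizartinib in RPMI moved most among genes inside the 1.2-fold interval (all at a mean of 10 CPM or more), and 13 genes the study names, while other list members were picked as examples after their values were seen. The members and lists were chosen with earlier results of these data known. Coordinates came from the GENCODE annotation of GRCh38, which gave 89 of 95 named genes, and promoters from RefSeq. Same-numbered libraries of the compared groups had correlations of 0.0057, -0.051 and 0.098 and were not treated as pairs.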

Additional observations from a re-analysis of the deposited data

How the results depend on the processing

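Over 17 alternatives (other scalings, filters, tests and thresholds, 6 libraries alone, each replicate left out) the called genes numbered 6687 to 8486 and kept both directions. Genes called at 2-fold or more numbered 816, but 1433 with no filter on low counts and 475 with a mean of at least 5 CPM, since the number of weak genes tested differed. The genes inside the interval numbered 3153 at 1.2-fold and 8558 at 1.5-fold, a wider bound by construction. Genes apart from all other libraries ranged from 882 to 1434 over 8 alternatives, the highest without replicate 1 of the treated hBMSC-CM cells. Leaving out any treated library makes this easier to meet, and without replicates 2 and 3 the numbers were 1262 and 1281, against 1054 with all libraries. With a replicate block 7926 genes were called, and it changed no call of a named gene, while the replicate numbers did not pair the libraries. Over 1330 comparisons of named genes no direction was reversed, 21 calls were lost (TRAF3, NCR3LG1, ORC2 and ATP6V0B) and 2 gained, ITM2C (adjusted p = 0.0176) and MCL1 (adjusted p = 0.0342), both by edgeR's quasi-likelihood test with library size only. The same scaling turned the list medians of NF-kB genes from -0.07 to 0.02 and of NRF2 genes from -0.07 to 0.02. Depth limits genes near the floor of 0.0951 to 0.15 CPM. Groups of 3 libraries were too small for a check of single outlying values.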
